A study of Mus musculus with 6 samples.

Results

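The sarcoplasmic reticulum calcium cycling genes are 10 genes that encode the pump, the release channel, the store proteins, the junction proteins and the exchanger through which a heart muscle cell raises and lowers its calcium at each beat. They were chosen by symbol (Atp2a2, Pln, Ryr2, Casq2, Slc8a1, Jph2, Trdn, Hrc, Camk2d and Asph), and all 10 were found among the 24404 genes counted. Each also passed the filter on low counts, which 12487 genes passed. The genes were compared between hearts of miR-204-/- mice (KO-TAC, 3 libraries) and hearts of wild-type mice (WT-TAC, 3 libraries). Both genotypes had transaortic constriction, a narrowing of the aorta that loads the left ventricle with pressure, and hearts were taken 5 weeks later. No unoperated heart was analysed here, so every value describes loaded hearts. The labels give no strain, age or sex, do not say how the deletion was made or which chambers were sampled, and do not say whether animals were pooled, so the spread between libraries may be partly technical. The study was set up around the part of miR-204 in cardiac hypertrophy under pressure load.

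Calcium that enters through the L-type channel opens the ryanodine receptor, and the calcium this releases from the sarcoplasmic reticulum starts contraction. Relaxation follows when the SERCA2 pump returns calcium to the store and the sodium-calcium exchanger moves the rest out of the cell. Phospholamban holds the pump back until it is phosphorylated by protein kinase A or by the calcium and calmodulin dependent kinase CaMKII. In failing and hypertrophic hearts a lower level of the pump is a widely described change, which makes these transcripts common readouts of pressure overload.

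Total counts per library ran from 6609315 to 8494415 in KO-TAC and from 6411538 to 8571737 in WT-TAC, and the members had between 1161 and 96485 counts each per library, so counting error was small against the spread between libraries. The cardiomyocyte markers (8 of 8 detected) summed to between 125424 and 193959 CPM (reads of a gene scaled to a common library size) in KO-TAC and between 147480 and 155088 CPM in WT-TAC. Fast skeletal muscle markers summed to at most 10.9 CPM in KO-TAC and 9.28 CPM in WT-TAC. Mylpf of that list and the globin genes Hbb-bs, Hbb-bt, Hba-a1 and Hba-a2 were listed at 0 in every library. The table column used for KO-TAC replicate 3 carries the number 73 of WT-TAC replicate 3 before its own library index, where the label of that sample gives a different number. Cacna1h, the T-type calcium channel gene that differed between the genotypes, stood at 5.91 CPM in KO-TAC replicate 3, between 1.90 and 5.59 CPM in the other KO-TAC libraries, and between 27.9 and 56.1 CPM in WT-TAC.

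The microRNA is shown because it is what the deletion removes, and its matches in the members, which the deletion leaves in place, are shown beside it. The mature miR-204-5p (RefSeq, GRCm38.p6, plus strand, chr19:22750610-22750631) is printed with its seed, bases 2 to 8, in capitals, and the stretches of 3′ UTR with the 7 bases that pair with the seed in capitals.
mmu-miR-204-5p: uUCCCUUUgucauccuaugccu
Ryr2 (minus strand, chr13:11553983-11553989): gttgccatgcAAAGGGAaatagtgcct
Camk2d (plus strand, chr3:126846110-126846116): tgagagccacAAAGGGAggtagccatg
Asph (minus strand, chr4:9450339-9450345): gcatggggacAAAGGGActtatttgat

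A match to AAAGGGA on the transcribed strand of the longest annotated 3′ UTR (GENCODE M21, GRCm38) was found in 3 of 10 members, against 17.0% of 11669 tested genes with a 3′ UTR. The median length of that 3′ UTR was 1831 bases for the members and 1253 bases for the tested genes. In Ryr2 the match is followed by an A, which makes it the longest of the usual seed site types, and in Camk2d and Asph it is not. The log2 fold changes of these 3 genes (KO-TAC over WT-TAC throughout) were −0.17 for Ryr2, −0.06 for Camk2d and 0.26 for Asph, and none passed the test described next. A match is a description of the letters, and the 3′ UTRs used in these hearts were not analysed here.

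No member passed the test of a difference between the genotypes. At an adjusted p under 0.05 in the quasi-likelihood test of edgeR (Benjamini-Hochberg, over 12487 genes), 0 of 10 members passed, where 0.024% of all tested genes (3) did. Without replicate 3 of both genotypes it was again 0 of 10, beside 0.0157% of tested genes. DESeq2 and limma-voom also called 0 members. At an unadjusted p under 0.05 the count was again 0 of 10, beside 2.93% of tested genes. Without KO-TAC replicate 3 it was 2 of 10, Pln (unadjusted p = 0.0253, adjusted p = 0.827 in edgeR) and Trdn (0.00679 and 0.651), beside 5.58% of tested genes. With any other single library left out it was 0 of 10, beside 297 of 12873 to 489 of 12835 tested genes. Without replicate 3 of both genotypes it was 1 of 10, Trdn (unadjusted p = 0.0352, adjusted p = 0.889 in edgeR), beside 5.35%. The counts with libraries left out were chosen after the values were seen. In 0 of 10 members did the KO-TAC and WT-TAC libraries not overlap in CPM, beside 7.98% of tested genes. The fitted log2 fold change was below 0 for 8 members and above 0 for 2, with a median of −0.08, and the median of all tested genes was 0.0012. Without WT-TAC replicate 3 the median of the members was 0.026 with 5 above 0, and without KO-TAC replicate 3 it was −0.17 with 1 above 0. The p-values weigh the genotype difference only against the spread between these libraries, as estimated with information shared across genes.

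**Figure D1:**
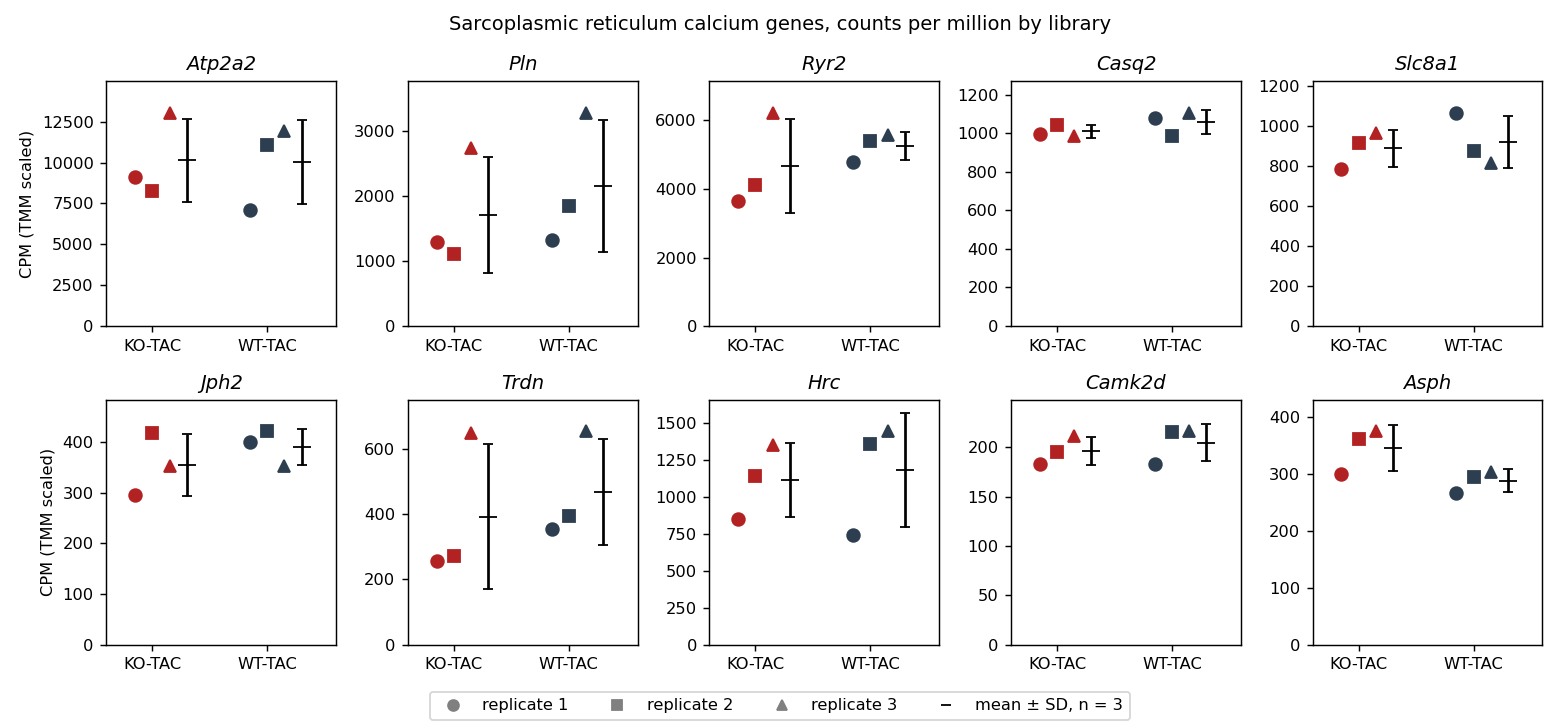
CPM of each member in each library, KO-TAC at the left and WT-TAC at the right of each panel, with the replicate number as the symbol and the mean ± SD beside the points (n = 3). The groups overlap in every panel, and for Pln and Trdn replicate 3 of both genotypes stands above the other libraries.

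Atp2a2 encodes SERCA2, the pump that refills the store, and lies on chromosome 5 from 122453513 to 122502225 (GRCm38, minus strand). It had 9101, 8285 and 13034 CPM in KO-TAC libraries and 7119, 11074 and 11951 CPM in WT-TAC libraries. The highest and the lowest library belonged to different genotypes, KO-TAC replicate 3 and WT-TAC replicate 1, with the other libraries between them. The mean was 10140 ± 2540 CPM in KO-TAC and 10048 ± 2574 CPM in WT-TAC (SD, n = 3 each), a log2 fold change of 0.01 ± 0.27 (SE). The 95% interval of the fold change ran from 0.673 to 1.51, so a change of the pump transcript within that range is not excluded by these libraries.

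Pln encodes phospholamban, the small membrane protein that restrains the pump, and lies on chromosome 10 from 53337667 to 53345987 (plus strand). It had 1292, 1116 and 2741 CPM in KO-TAC and 1325, 1856 and 3285 CPM in WT-TAC. In both genotypes replicate 3 was the highest library, and the highest library of all had 2.94 times the level of the lowest. The mean was 1716 ± 892 CPM in KO-TAC and 2155 ± 1014 CPM in WT-TAC (SD, n = 3 each). The log2 fold change of −0.33 ± 0.40 (SE) had an adjusted p of 0.999 in edgeR, and it turned to 0.11 without WT-TAC replicate 3 and stood at −0.84 without KO-TAC replicate 3. Annotated exons of Pln share 59.6% of their bases with Gm47644, which is not among the genes counted, and 5.11% with Cep85l. Both lie on the other strand, so without a stated strand setting reads from the shared bases cannot be told apart. Cep85l had 1784 counts over all libraries, where Pln had 8421 to 23982 in each. The log2 fold change of Cep85l was 0.54 ± 0.23 (SE, unadjusted p = 0.0334, adjusted p = 0.999 in edgeR).

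The balance of inhibitor and pump was also read within each library, where scaling does not enter. The log2 ratio of Pln counts to Atp2a2 counts was −2.82, −2.89 and −2.25 in KO-TAC and −2.43, −2.58 and −1.86 in WT-TAC. The ranges overlapped, and replicate 3 had the highest ratio in both genotypes. The mean was −2.65 ± 0.35 in KO-TAC and −2.29 ± 0.38 in WT-TAC (SD, n = 3 each), a difference of −0.36. An exact permutation test, two-sided, gave p = 0.3, and 0.9 adjusted over the 3 ratios examined; the smallest p that 3 libraries against 3 allow is 0.1. The ratio of Slc8a1 to Atp2a2, the exchanger against the pump, differed by −0.07 (exact permutation p = 0.9), and that of Casq2 to Ryr2, the store buffer against the release channel, by 0.15 (exact permutation p = 0.7).

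Ryr2 encodes the ryanodine receptor that releases calcium from the store, and lies on chromosome 13 from 11553102 to 12106945 (minus strand). It had 3646, 4108 and 6219 CPM in KO-TAC and 4801, 5392 and 5579 CPM in WT-TAC. KO-TAC held both the lowest libraries and the highest, and the WT-TAC libraries lay close together between them. The means were 4657 ± 1372 CPM in KO-TAC and 5258 ± 406 CPM in WT-TAC (SD, n = 3 each), and the 95% interval of the fold change ran from 0.613 to 1.28.

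Trdn and Asph encode the proteins that tie the release channel to the calcium buffer inside the store, triadin and junctin. Trdn, on chromosome 10 from 33080554 to 33476709 (plus strand), had 255, 271 and 648 CPM in KO-TAC and 354, 392 and 652 CPM in WT-TAC. Replicate 3 was again the highest in each genotype, and those libraries differed from each other by less than from any other. The log2 fold change of Trdn was −0.25 ± 0.38 (SE), with 0.07 when WT-TAC replicate 3 was left out and −0.83 when KO-TAC replicate 3 was.

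Asph, on chromosome 4 from 9448069 to 9669344 (minus strand), also encodes an aspartyl hydroxylase, and its 15 annotated coding transcripts were counted together, so junctin alone was not measured. It had 299.5, 361 and 374 CPM in KO-TAC and 265, 294 and 304 CPM in WT-TAC. KO-TAC replicates 2 and 3 stood above every WT-TAC library, and KO-TAC replicate 1 lay within the WT-TAC range. The log2 fold change of 0.26 ± 0.18 (SE) was the highest of the members, with an unadjusted p of 0.178 and an adjusted p of 0.999 in edgeR. Leaving out any 1 library gave 0.20 to 0.35. Of the exon bases of Asph, 14.3% are shared with Clvs1 on the other strand, a gene with 72 counts over all libraries.

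Casq2 encodes calsequestrin, the main calcium buffer of the cardiac store, and lies on chromosome 3 from 102086415 to 102146514 (plus strand). It had 998, 1045 and 984 CPM in KO-TAC and 1077, 987 and 1105 CPM in WT-TAC. All libraries lay within a ratio of 1.12 of each other, the narrowest range of the 10 genes. Its log2 fold change was −0.07 ± 0.19 (SE), and its 95% interval of the fold change ran from 0.721 to 1.27.

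Hrc, a histidine-rich calcium-binding protein of the store that binds both the pump and triadin, lies on chromosome 7 from 45335290 to 45338974 (plus strand). It had 849, 1139 and 1354 CPM in KO-TAC and 740, 1361 and 1443 CPM in WT-TAC. Replicate 1 was the lowest library of each genotype, and KO-TAC replicates 2 and 3 lay between the WT-TAC libraries, below WT-TAC replicates 2 and 3. The log2 fold change was −0.08 ± 0.27 (SE).

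Jph2 encodes junctophilin, which holds the reticulum close to the transverse tubules, and lies on chromosome 2 from 163336242 to 163397993 (minus strand). It had 295, 418 and 353 CPM in KO-TAC and 401, 421 and 352 CPM in WT-TAC. KO-TAC replicate 1 was below all other libraries, which overlapped, and the log2 fold change was −0.14 ± 0.20 (SE).

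Slc8a1 encodes the sodium-calcium exchanger of the surface membrane, and lies on chromosome 17 from 81373105 to 81738377 (minus strand). It had 787, 915 and 966 CPM in KO-TAC and 1067, 879 and 818 CPM in WT-TAC. The KO-TAC values lay inside the WT-TAC range except for replicate 1, which was the lowest of all. The log2 fold change was −0.05 ± 0.20 (SE).

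Camk2d encodes the main cardiac form of the kinase CaMKII, which phosphorylates phospholamban and the release channel, and lies on chromosome 3 from 126596302 to 126846326 (plus strand). It had 183, 195 and 211 CPM in KO-TAC and 183, 215 and 216 CPM in WT-TAC. The libraries of both genotypes covered nearly the same range, and the log2 fold change was −0.06 ± 0.18 (SE). Its 11 coding transcripts, whose protein forms reach different parts of the cell, were counted as 1 gene.

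**Figure D2:**
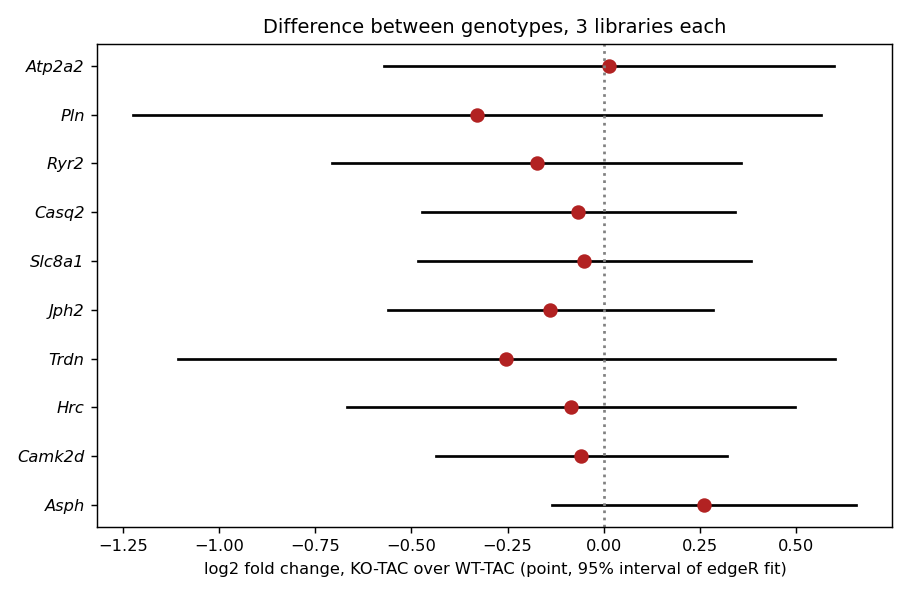
Log2 fold change of each member, KO-TAC over WT-TAC, with the 95% interval from the edgeR fit (3 libraries per genotype). Every interval includes 0, and those of Pln (−1.22 to 0.57) and Trdn (−1.11 to 0.60) are the widest.

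Levels of different genes were compared per length, as CPM per kilobase of the longest coding transcript. Atp2a2 stood highest of the members, at 2260 ± 566 CPM per kilobase in KO-TAC and 2240 ± 574 in WT-TAC (SD, n = 3 each), and ranked 12 among 11686 tested genes with a coding transcript. Pln followed at 735 ± 382 in KO-TAC and 923 ± 434 in WT-TAC, and no library of Pln reached the lowest library of Atp2a2. Hrc, at 462 ± 105 in KO-TAC and 490 ± 159 in WT-TAC, and Casq2, at 395 ± 13 in KO-TAC and 413 ± 24 in WT-TAC, overlapped with each other, and Hrc overlapped with Pln. Ryr2 came next at 277 ± 82 in KO-TAC and 313 ± 24 in WT-TAC, below every library of Casq2.

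The remaining members were lower on this scale. Trdn had 86.6 ± 49.3 CPM per kilobase in KO-TAC and 103 ± 36 in WT-TAC, and Jph2 84.4 ± 14.6 in KO-TAC and 92.9 ± 8.4 in WT-TAC, which overlapped. Slc8a1 (48.2 ± 5.0 in KO-TAC, 49.9 ± 7.0 in WT-TAC) and Asph (51.5 ± 5.9 in KO-TAC, 43.0 ± 3.0 in WT-TAC) overlapped too. Camk2d was lowest, at 35.6 ± 2.6 in KO-TAC and 37.0 ± 3.4 in WT-TAC. Lengths depend on the annotated transcripts: per kilobase of all annotated exons Trdn moved to place 8 of 10, and the order of the first 5 was as given.

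The members separated by how much they varied within a genotype. The pooled SD within genotypes was 0.68 log2 units for Pln and 0.63 for Trdn, above 96.3% and 96.0% of 602 tested genes with a mean level at least that of the lowest member, whose median SD was 0.24. Hrc (0.45), Atp2a2 (0.38) and Ryr2 (0.30) followed. Jph2 (0.20), Slc8a1 (0.18), Asph (0.14), Camk2d (0.12) and Casq2 (0.07) lay below that median, and 0.332% of those genes had a smaller SD than Casq2. That place of Casq2 rests on TMM scaling: with libraries scaled to the 8 cardiomyocyte markers its SD was 0.20, above Camk2d (0.14), Jph2 (0.12) and Asph (0.08). The place of Trdn did not hold once each library's trend with GC content was removed, as given below. Its SD was then 0.37, below Hrc (0.45) and Atp2a2 (0.38), and that of Pln was 0.46.

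**Figure D3:**
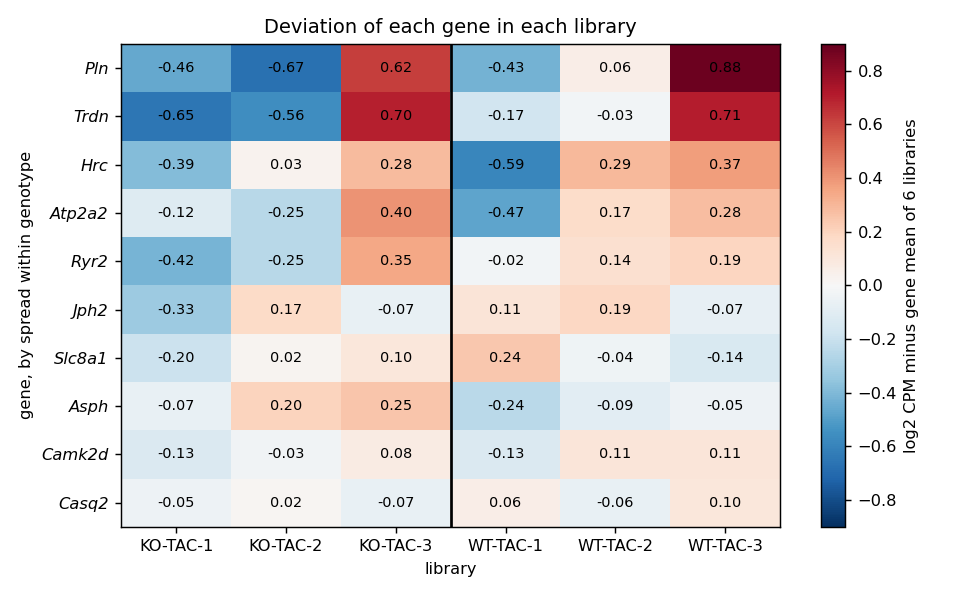
Deviation of log2 CPM from the mean of the 6 libraries for each member, KO-TAC libraries left of the line and WT-TAC libraries right of it, genes ordered by their spread within genotype. Pln and Trdn are between 0.62 and 0.88 above their mean in replicate 3 of both genotypes, and Casq2 stays within 0.10 of its mean.

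The members with a larger spread were correlated with each other to different degrees. Over the 6 libraries, which share their scaling, Pearson's r of log2 CPM was 0.961 between Pln and Trdn, 0.925 between Ryr2 and Trdn, and 0.870 between Atp2a2 and Pln. It was 0.861 between Atp2a2 and Hrc, 0.835 between Pln and Ryr2 and 0.774 between Atp2a2 and Trdn. It was lower between Pln and Hrc (0.733), Atp2a2 and Ryr2 (0.700), Trdn and Hrc (0.666) and Ryr2 and Hrc (0.659). Hrc was closest to Camk2d, a gene of small spread (0.969). Slc8a1 and Casq2 did not follow Atp2a2, with r of −0.377 and −0.330. The tested genes most like the mean profile of the members over the 6 libraries were Ppm1a, a protein phosphatase (r = 0.999), Mpp5, a cell polarity scaffold (0.995), Pgap1, an enzyme that remodels lipid anchors of proteins (0.994), Rfx3, a transcription factor of ciliated cells (0.991), and Nek1, a protein kinase (0.989). They were picked as the highest of 12477 other tested genes, of which 267 had r above 0.9 over these 6 libraries.

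The levels of Ryr2, Trdn and Pln ran opposite to the natriuretic peptide gene Nppb, which is induced by load, though not past adjustment over all genes. Nppb had 1492, 817 and 129 CPM in KO-TAC and 741, 383 and 202 CPM in WT-TAC, so that KO-TAC held the highest and the lowest library, and the log2 fold change was 0.88 ± 0.97 (SE). The order of the 6 libraries in Ryr2 was the exact reverse of their order in Nppb (Spearman's rho = −1, exact permutation p = 0.00278, the smallest for ranks of 6 libraries; Pearson's r of log2 CPM = −0.956, exact permutation p = 0.00417). For Trdn r was −0.962 (exact permutation p = 0.00278) and rho −0.943 (exact permutation p = 0.0167), and for Pln r was −0.907 (exact permutation p = 0.0167) and rho −0.886 (exact permutation p = 0.0333).

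Atp2a2 had r of −0.821 with Nppb (exact permutation p = 0.0611; rho = −0.771, exact permutation p = 0.103), Camk2d −0.844 (exact permutation p = 0.05; rho = −0.657, exact permutation p = 0.175) and Hrc −0.779 (exact permutation p = 0.0889; rho = −0.657, exact permutation p = 0.175). Casq2 (r = 0.0033, exact permutation p = 0.997; rho = 0.2, exact permutation p = 0.714), Slc8a1 (r = −0.145, exact permutation p = 0.775; rho = −0.314, exact permutation p = 0.564), Jph2 (r = −0.134, exact permutation p = 0.806; rho = −0.0857, exact permutation p = 0.919) and Asph (r = −0.393, exact permutation p = 0.436; rho = −0.371, exact permutation p = 0.497) showed no such relation at this number of libraries. All these tests were two-sided and took the libraries of both genotypes together. With each genotype centred on its own mean, r was −0.827 for Asph, beside −0.846 for Atp2a2, −0.838 for Camk2d and −0.783 for Hrc. It was −0.117 for Slc8a1, −0.058 for Jph2 and 0.124 for Casq2. The centred r of Asph was −0.125 with libraries scaled to the cardiomyocyte markers, and −0.092 after each library's trend with GC content was removed.

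This relation was chosen after the values were seen. Of 12486 tested genes other than Nppb, 2.15% had r below −0.9, and 3 of the 10 members did. Adjusted over all of these genes by the Benjamini-Hochberg method, no gene passed: the adjusted p was 0.236 for Trdn, 0.254 for Ryr2 and 0.321 for Pln. Without the 2 libraries farthest from the median of Nppb, KO-TAC replicates 1 and 3, r was −0.948 for Trdn, −0.875 for Ryr2 and −0.991 for Pln. After each genotype was centred on its own mean, r was −0.967 for Trdn, −0.975 for Ryr2 and −0.906 for Pln, and 3 libraries per genotype are too few for a value within each. With Nppa, the atrial natriuretic peptide gene, in place of Nppb, r was −0.750, −0.775 and −0.705 for Trdn, Ryr2 and Pln, with exact permutation p of 0.0597, 0.05 and 0.0986. The member farthest from 0 with Nppa was Atp2a2, at −0.833 (exact permutation p = 0.0236, 0.369 adjusted over all genes). With libraries scaled to the cardiomyocyte markers that value was −0.549 (exact permutation p = 0.269).

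**Figure D4:**
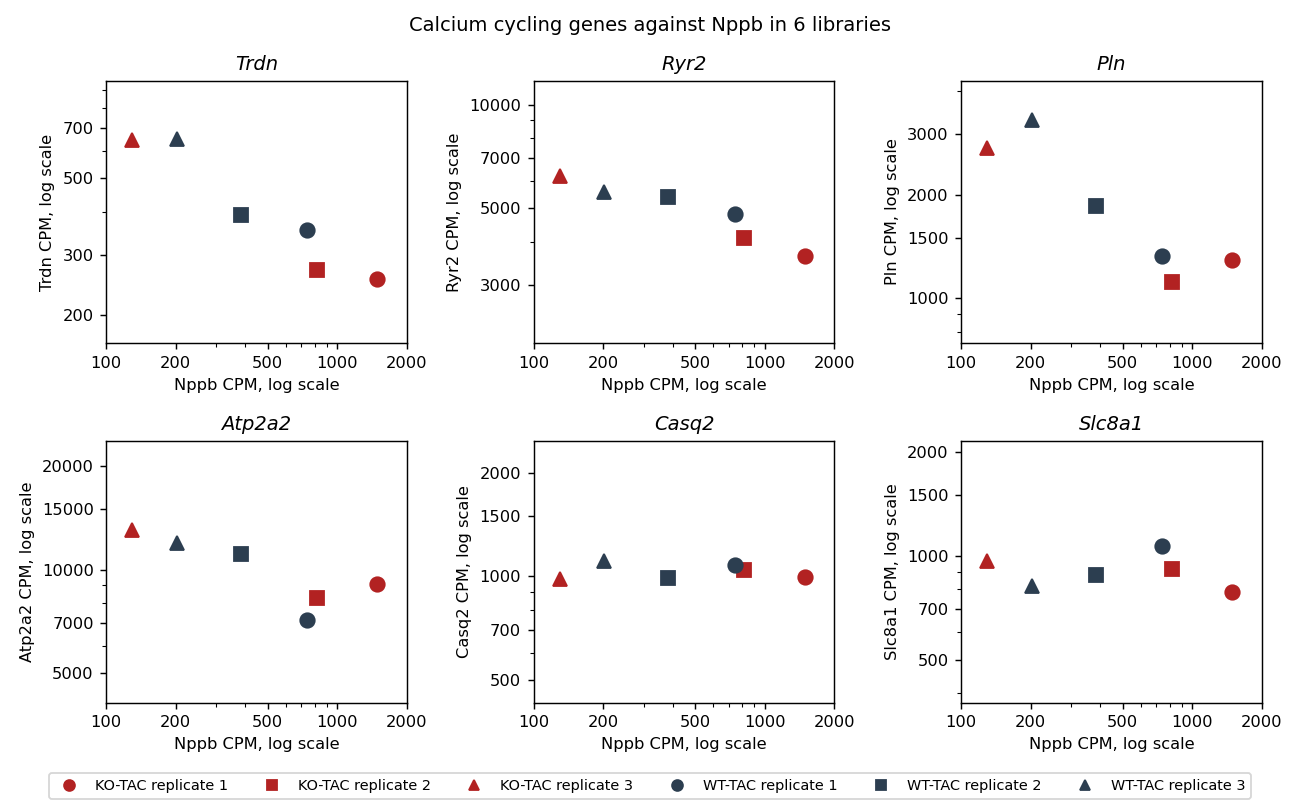
CPM of 6 members (vertical, log scale) against CPM of Nppb (horizontal, log scale) in each library, with KO-TAC in red and WT-TAC in dark blue and the replicate number as the symbol. Trdn, Ryr2, Pln and Atp2a2 are lower toward the right (r = −0.962, −0.956, −0.907 and −0.821 on the log2 scale, or −0.792, −0.647, −0.721 and −0.548 with cardiomyocyte marker scaling), whereas Casq2 and Slc8a1 show no such slope (r = 0.0033 and −0.145).

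Marker sums of cell types were set beside the order of Nppb. The cardiomyocyte markers summed to 125424, 161779 and 193959 CPM in KO-TAC and 147480, 153619 and 155088 CPM in WT-TAC, the reverse of the order of Nppb within each genotype. The 8 fibroblast markers summed to 2884, 1952 and 1164 CPM in KO-TAC and 3103, 1823 and 1423 CPM in WT-TAC, in the order of Nppb within each genotype, and all 8 were detected. The 8 atrial markers, Nppa among them, summed to 8088, 5819 and 573 CPM in KO-TAC and 9069, 3264 and 3832 CPM in WT-TAC, in the order of Nppb within KO-TAC but not within WT-TAC, and all 8 were detected. Macrophage markers summed to 407, 244 and 219 CPM in KO-TAC and 289, 278 and 260 CPM in WT-TAC, in the order of Nppb within each genotype. Endothelial sums (1368 to 2051 CPM in KO-TAC, 1255 to 1362 in WT-TAC) and smooth muscle sums (160 to 335 CPM in KO-TAC, 307 to 454 in WT-TAC) had that order within KO-TAC but not within WT-TAC. Their part in the relation was not tested. In whole-tissue RNA, fewer cells of a type and less RNA per cell cannot be told apart. When each library was scaled to its 8 cardiomyocyte markers instead of by TMM, r with Nppb was −0.792 for Trdn, −0.647 for Ryr2 and −0.721 for Pln, with exact permutation p of 0.0653, 0.175 and 0.104, so these values no longer passed 0.05. On that scale r was −0.548 for Atp2a2 (exact permutation p = 0.265), −0.730 for Hrc (exact permutation p = 0.107) and −0.032 for Camk2d (exact permutation p = 0.956). The spread within genotypes on that scale was 0.66 log2 units for Pln and 0.59 for Trdn.

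The libraries differed by transcript GC content, which is low in Pln and Trdn, and the part of this in their spread was not tested. Their longest coding transcripts have 38.6% and 36.8% GC, the lowest of the members, beside a median of 50.2% for the tested genes. Among 863 tested genes in the lowest quintile of GC (33.9% to 44.1%), the median deviation from the gene's mean was −0.13, −0.17 and 0.22 log2 units in KO-TAC replicates 1, 2 and 3 and −0.02, −0.06 and 0.19 in WT-TAC replicates 1, 2 and 3. In the highest quintile it was 0.0089, 0.18 and −0.10 in KO-TAC and 0.021, 0.055 and −0.10 in WT-TAC. After each library's trend with GC was removed, the SD within genotypes was 0.46 for Pln and 0.37 for Trdn, and 0.38 for Atp2a2, 0.45 for Hrc and 0.28 for Ryr2. On that scale r with Nppb was −0.984 for Trdn, −0.931 for Ryr2 and −0.881 for Pln, with exact permutation p of 0.00139, the smallest r can give over 6 libraries, 0.00694 and 0.0375. Adjusted over all genes (Benjamini-Hochberg) these were 0.271, 0.336 and 0.437, so none passed. For Pln rho was −0.771 (exact permutation p = 0.103), and for Trdn and Ryr2 it was −1. Among the other members r was −0.844 for Hrc, −0.818 for Atp2a2 and −0.665 for Jph2. It was above 0 for Asph (0.120), Camk2d (0.160), Casq2 (0.592) and Slc8a1 (0.593). Slc8a1, at 40.2% GC, was also highest in replicate 3 among KO-TAC libraries but lowest in replicate 3 among WT-TAC libraries. Removing the trend raised the SD of Slc8a1 from 0.18 to 0.27 and that of Casq2 from 0.07 to 0.09. It lowered the SD of Jph2 from 0.20 to 0.15, of Asph from 0.14 to 0.10 and of Camk2d, at 43.9% GC, from 0.12 to 0.10.

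**Figure D5:**
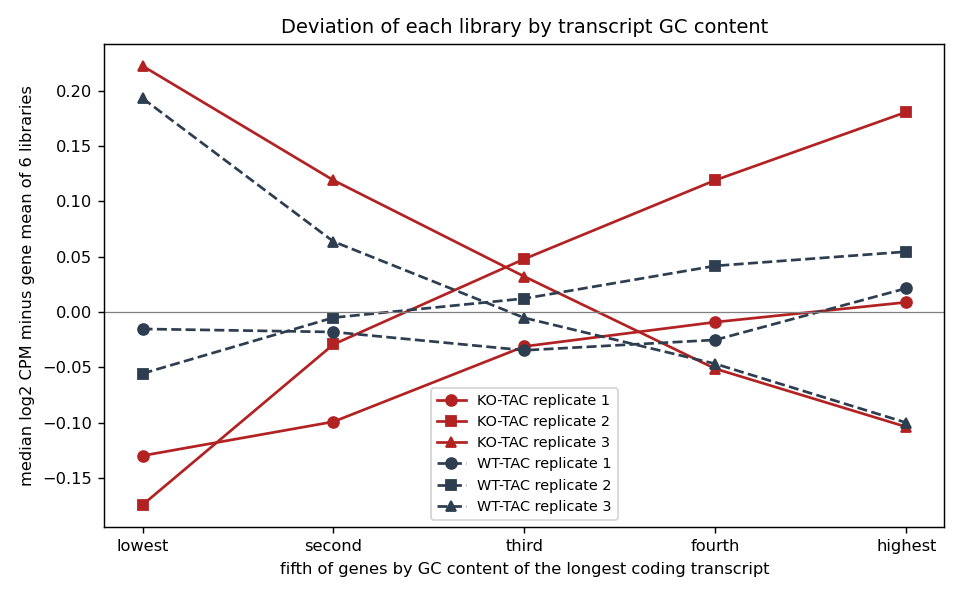
Median deviation of log2 CPM from the gene mean (vertical) in quintiles of tested genes by GC content of the longest coding transcript (horizontal), for each KO-TAC library (red, solid) and WT-TAC library (dark blue, dashed). Replicate 3 of both genotypes runs from about 0.2 in the lowest quintile to −0.10 in the highest, and KO-TAC replicate 2 runs the other way.

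Genes that act on these members were examined as 9 lists by role. Of 86 genes listed 74 were tested, 35 above and 39 below 0 in log2 fold change, with a median of −0.02. In edgeR 1 of these was called over all genes, Cacna1h, which was lower in KO-TAC (log2 fold change −3.23 ± 0.40 SE, adjusted p = 0.00865). That call was lost with limma-voom (adjusted p = 0.141) and without WT-TAC replicate 1 (adjusted p = 0.0637 in edgeR), at log2 fold changes of −3.31 and −3.23. At an unadjusted p under 0.05 there were 2 higher and 2 lower of 74, where 1.36% of tested genes were higher and 1.57% lower. Genes whose groups do not overlap were 2 higher and 1 lower, beside 4.26% and 3.72% of tested genes.

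Among partners of the pump, 3 of 8 were tested, 1 above and 2 below 0, with 0 called. Sln, which encodes sarcolipin, the atrial relative of phospholamban, had 59.9, 33.3 and 7.68 CPM in KO-TAC and 34.4, 29.0 and 67.8 CPM in WT-TAC, with a log2 fold change of −0.38 ± 0.72 (SE) that turned to 0.088 without KO-TAC replicate 3 and to 0.085 without WT-TAC replicate 3. Of the partners of the release channel 9 of 10 were tested, 3 above and 6 below 0, with 0 called. Pde4d, a phosphodiesterase that degrades cyclic AMP near the channel, had the smallest p there, at a log2 fold change of −0.34 ± 0.23 (SE, unadjusted p = 0.169). Fkbp1b, which encodes the channel-bound calstabin, did not pass the filter, with 0.243 to 0.877 CPM in KO-TAC and 0.629 to 1.51 CPM in WT-TAC.

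Junction and tubule genes were all tested, 2 above and 8 below 0, with a median of −0.07 and 0 called. Tcap, which encodes telethonin, a Z-disc protein that binds titin, had 288, 847 and 394 CPM in KO-TAC and 756, 1023 and 1069 CPM in WT-TAC. KO-TAC replicates 1 and 3 lay below all WT-TAC libraries and KO-TAC replicate 2 within their range, for a log2 fold change of −0.90 ± 0.35 (SE, unadjusted p = 0.0259, adjusted p = 0.999 in edgeR). Kinases and phosphatases, 13 of 13 tested, had 4 above and 9 below 0 and 0 called, with Ppp2r5a, a regulatory subunit of protein phosphatase 2A, at 0.19 ± 0.21 (SE, log2 fold change).

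Exchange and efflux genes had 9 above and 2 below 0 of 11 tested, with a median of 0.07 and 0 called. Other release and refill genes had 6 above and 4 below 0, with 0 called. Stim1, which senses store calcium, had 28.3, 32.3 and 19.5 CPM in KO-TAC and 17.8, 21.1 and 18.1 CPM in WT-TAC (log2 fold change 0.49 ± 0.26 SE, unadjusted p = 0.0749). Luminal calcium-binding genes had 5 above and 3 below 0, with 0 called. Calr, which encodes calreticulin, a buffer and chaperone of the endoplasmic reticulum, had 481, 447 and 321 CPM in KO-TAC and 326, 281 and 304 CPM in WT-TAC. The overlap was between KO-TAC replicate 3 and WT-TAC replicate 1, at a log2 fold change of 0.46 ± 0.20 (SE, unadjusted p = 0.0410, adjusted p = 0.999 in edgeR).

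Forms of the members that belong mainly to other tissues were low. Of 7 such genes 3 were tested, 1 above and 2 below 0, with 0 called, and Casq1, the skeletal muscle calsequestrin, had 14.5 to 22.0 CPM in KO-TAC and 12.3 to 28.6 CPM in WT-TAC. Atp2a1 and Ryr1, the skeletal muscle pump and channel, did not pass the filter, at no more than 1.61 and 0.739 CPM in KO-TAC and 2.60 and 1.57 CPM in WT-TAC. Calcium entry genes had 4 above and 3 below 0 of 7 tested, with Cacna1h called. Rrad, a small GTPase that restrains the L-type channel, had 207, 193 and 224 CPM in KO-TAC and 137, 174 and 99.2 CPM in WT-TAC. The genotypes did not overlap in Rrad, whose log2 fold change of 0.61 ± 0.21 (SE) had an unadjusted p of 0.0129 and an adjusted p of 0.999 in edgeR.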

How the data were processed

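The authors deposited raw counts, whole numbers of reads per gene symbol in 6 libraries, with no normalization. Subread, HISAT2 2.1.0, FastQC and edgeR, and the builds mm10 and GRCm38, appear without roles in the submitters' processing notes; which strand setting was counted is not given there. Per the labels' protocols, the libraries came from 1 of 2 TruSeq kits, only 1 of them stranded. The column of KO-TAC replicate 3 was assigned by its library index.

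The test was edgeR (version 4.0.16, R 4.3.3): filterByExpr by genotype at a minimum count of 10, TMM scaling and a robust quasi-likelihood fit without covariates. Called genes had an adjusted p (Benjamini-Hochberg) under 0.05. SE is the size of the log2 fold change divided by the root of F, and 95% intervals use the t quantile of the fit. CPM use TMM-scaled totals, and log2 CPM a prior count of 2. GC curves were lowess fits (span 0.3) over tested genes whose mean log2 CPM was 5 or more. Gene positions, lengths and GC come from GENCODE M21.

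All members are named. Of each list, genes with an unadjusted p under 0.05 are named, or else the gene with the smallest p, and of genes like the members the 5 with the highest r. For 1 list the gene this rule names is not reported here. Strit1, Erln and Arln of the pump list were matched to no gene counted and were not analysed here. The members, lists and tests were chosen with earlier results of these data known. Same-numbered libraries were not treated as pairs, as given in the closing section. The test script was tested on simulated data. Alternatives, with DESeq2 1.42.0 and limma 3.58.1 among them, are given in the closing section.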

Additional observations from a re-analysis of the deposited data

How the results depend on the processing

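The count of 0 members called held under all 19 alternatives, among them each library left out, other scalings and filters, DESeq2, limma-voom, the replicate block, GC correction, replicate 3 of both genotypes left out, and looser thresholds with all libraries. The number of genes called over the table was 21 with no filter, 16 with DESeq2, 0 with limma-voom (364 at an unadjusted p under 0.05) and 6 with the replicate block, and with 1 library left out from 0 (without WT-TAC replicate 1, 437 at an unadjusted p under 0.05) to 7 (without KO-TAC replicate 2), with 6 without KO-TAC replicate 3; the cause was not tested. The median log2 fold change of the members ran from −0.17 to 0.026 with 1 library left out. The replicate number was not used as a pairing: deviations of same-numbered libraries correlated at 0.13, 0.011 and 0.26. KO-TAC replicate 2 correlated best with WT-TAC replicate 1 (0.15), and KO-TAC replicates 1 and 3 with the WT-TAC library of their own number. In the block fit the median of the members was −0.06. Pln stood there at −0.34 ± 0.19 (SE, unadjusted p = 0.0963, adjusted p = 0.995 in edgeR), where its SE was 0.40 without the block. Trdn stood at −0.34 ± 0.17 (SE, unadjusted p = 0.0655, adjusted p = 0.995 in edgeR), where its SE was 0.38. The Pln to Atp2a2 ratio had an exact sign-flip p of 0.25, the smallest for 3 pairs. The difference in that ratio, −0.36, is the same by construction.

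Atp2a2 changed sign with no scaling (−0.019), cardiomyocyte marker scaling (−0.051), GC correction (−0.016) and replicate 3 of both genotypes left out (−0.066), and Slc8a1 with GC correction (0.017). Leaving out single libraries gave Atp2a2 −0.21 to 0.16, Pln −0.84 to 0.11, Trdn −0.83 to 0.069, Hrc −0.33 to 0.085 and Slc8a1 −0.13 to 0.065 on the log2 scale. Ryr2 ran from −0.44 (without KO-TAC replicate 3) to −0.024 (without KO-TAC replicate 1), Jph2 from −0.27 (without KO-TAC replicate 2) to −0.020 (without KO-TAC replicate 1), Camk2d from −0.14 (without WT-TAC replicate 1) to −0.0081 (without KO-TAC replicate 1), Casq2 from −0.11 to −0.032 and Asph from 0.20 to 0.35. Of the list genes, Sln ran from −1.08 to 0.088 (0.55 without replicate 3 of both genotypes) and Ppp2r5a from −0.012 to 0.33. The ratio of Pln to Atp2a2 ran from −0.57 (without KO-TAC replicate 3) to −0.15 (without WT-TAC replicate 3), that of Slc8a1 to Atp2a2 from −0.29 to 0.27 and that of Casq2 to Ryr2 from −0.0036 to 0.39. GC correction, the removal of both replicate 3 libraries, the unadjusted counts of members with libraries left out and the relations to Nppb were chosen after seeing the data. Correlations with Nppb that changed sign were those of Slc8a1 (0.593 with GC correction, 0.322 with cardiomyocyte marker scaling, 0.790 without the farthest libraries), Jph2 (0.323 with that scaling, 0.752 without the farthest libraries, 0.0538 with Nppa), Asph (0.120 with GC correction, 0.0457 with that scaling, 0.164 without the farthest libraries), Camk2d (0.160 with GC correction) and Casq2 (−0.224 without the farthest libraries). Depth was not varied.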
